A study of Mus musculus with 4 samples.

Results

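The mitochondrial respiratory chain and ATP synthase were represented by 76 genes of the 8251 that had at least 1 probe set annotated to a single gene. The members were the genes whose symbol in the array's annotation marks a subunit of complex I (Nduf, 31 genes), complex II (Sdh, 6 genes), complex III (Uqcr and Cyc1, 8 genes), cytochrome c (Cycs and Cyct), complex IV (Cox4 to Cox8, 15 genes) or ATP synthase, here complex V (Atp5, 14 genes). The symbol rule also took in 4 assembly factors, Ndufaf1, Ndufaf4, Sdhaf1 and Sdhaf2, which build a complex and are not part of it. Each gene was read from the brightest of its probe sets, 104 in all, and 10 probe sets that list a member beside another gene were left out. RNA came from testis of C57BL/6J mice 16 weeks old, 2 arrays of Tslc1+/+ and 2 of Tslc1-/- mice. Tslc1, now named Cadm1, is an adhesion molecule of the immunoglobulin superfamily, and the labels do not give the deleted part of the gene, any other allele, or whether the arrays of a genotype held RNA of separate animals. The p-values therefore reflect the spread between arrays alone, and that spread may be technical.

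The respiratory chain passes electrons from NADH (complex I) and succinate (complex II) through ubiquinone, complex III and cytochrome c to oxygen at complex IV, and the proton gradient this builds drives ATP synthase. Most subunits are encoded in the nucleus, and those are the ones read here. In the testis the demand shifts along spermatogenesis: spermatocytes and round spermatids oxidise lactate supplied by Sertoli cells, and sperm carry their mitochondria in a sheath around the midpiece. Germ cells also use their own forms of some proteins, among them the testis cytochrome c (Cyct) and the complex IV subunits Cox6b2 and Cox8c.

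Values are array signals scaled to a common target of 1000. Each change is a log2 ratio, Tslc1-/- to Tslc1+/+, of signals raised by 50, and it understates the change of dim probe sets. A probe set was tested where its mean signal over the 4 arrays was at least 200, and was called at an adjusted p under 0.05 (limma, Benjamini-Hochberg over all 7975 tested probe sets). In simulated data of this design the share of false calls was above that threshold at the smaller changes simulated, so an adjusted p near it overstates the evidence for a change of modest size. Since the tissue was not sorted, fewer cells of a type and less RNA per cell cannot be told apart. The brighter tested Cadm1 probe set was at 3449.5 and 4027.9 in the controls and at 775.9 and 604.5 in the knockout, a log2 change of -2.36, and the other tested one had a change of -3.01. Both carry a suffix of possible cross-hybridisation. Among germ cell markers, the signals of 12 elongating spermatid genes, from a mean of 276.7 for Prm2 to one of 119991 for Tnp2, summed to 611934 and 619154 on the control arrays and to 449384 and 421502 on those of the knockout. The brightest probe sets weigh most in such a sum, so it does not describe each gene.

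Promoter stretches are shown for cytochrome c, the only electron carrier here with a general and a testis form. Stretches of Atp5md and Uqcrh, chosen from the members with a low reading in Tslc1-/-, are shown too. Each is the 120 bases just before the annotated start, from RefSeq on GRCm38.p6, 5′ to 3′. Capitals mark matches to CGCATGC, the core of the motif of the respiratory regulator NRF1, to CTTCCGG, the core of the motif of ETS factors such as GABP, each on either strand, and to TGACGTCA, the cyclic AMP response element (CRE), which reads the same on both strands.
Cycs, chr6:50566570-50566689, minus strand: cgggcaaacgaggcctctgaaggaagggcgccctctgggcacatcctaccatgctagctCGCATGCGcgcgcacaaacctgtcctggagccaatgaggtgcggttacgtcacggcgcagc
Cyct, chr2:76360454-76360573, minus strand: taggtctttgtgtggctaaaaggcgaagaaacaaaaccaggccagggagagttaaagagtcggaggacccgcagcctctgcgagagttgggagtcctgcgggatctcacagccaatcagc
Uqcrh, chr4:116075071-116075190, minus strand: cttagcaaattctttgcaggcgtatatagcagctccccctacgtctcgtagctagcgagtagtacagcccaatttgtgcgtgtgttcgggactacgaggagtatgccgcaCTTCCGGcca
Atp5md, chr19:47090648-47090767, minus strand: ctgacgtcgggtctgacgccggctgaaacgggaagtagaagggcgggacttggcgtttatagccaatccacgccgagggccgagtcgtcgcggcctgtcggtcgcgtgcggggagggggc

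The general cytochrome c gene Cycs held the NRF1 core from base -61 to -55 and, on the other strand, from -60 to -54, where both matches overlap. It also held the CRE from -169 to -162, outside the stretch shown. Uqcrh held the ETS core from -10 to -4 and Atp5md from 2 to 8 after its start, which is not shown. No motif matched in the 300 bases of Cyct, which says only that these letters are not in that window. Nor did any match in the listed promoter of Ndufa3, which also read lower in Tslc1-/- and is not shown. Cox6c had no listed promoter. Promoters of 300 bases were listed for 62 members, 67 in all. Of these, 17.9% held the NRF1 core on either strand, against 5.49% of the 8408 promoters of genes on the array. The ETS core was in 26.9% of members' promoters and 14.4% of promoters on the array, and the CRE in 4.48% and 2.6%. The mean GC content was 58.0% in members' promoters and 53.8% over all 32851 promoters of the table, a wider set than the 8408 of genes on the array. These matches are a description and not sites.

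Of the 76 members, 70 had a mean signal of at least 200 and were tested. In Tslc1-/- testis 1 of them fell, the complex IV gene Cox6c, none rose and 69 did not pass. That is 1.43% of the members tested, against 1.08% of all tested probe sets called in either direction, 0.84% lower and 0.238% higher. Members are brighter than the array at large, and among those with a mean signal of at least 5000 the share called was 3.33%, 1 of 30, against 7.28% of the 714 tested probe sets as bright. Of these, 26.7% of members and 34.2% of probe sets lay lower on both Tslc1-/- arrays than on both controls. At an unadjusted p under 0.05 there were 6 of the 70 members, 4 lower (Cox6c, Atp5md, Ndufa3 and Uqcrh) and 2 higher (Ndufa7 and Atp5pb). Over all 7975 tested probe sets there were 799, 416 lower and 383 higher. With a mean signal of at least 5000 there were 2 of 30 members and 189 of 714 probe sets. The share of members was therefore near that of the array at large, and among bright ones it was below that of probe sets as bright. The median change of the 70 was -0.06, with 43 members below 0 and 27 above. That of all tested probe sets was 0.02, with 3787 below and 4188 above. Among those with a mean signal of at least 5000, the median was -0.07 for the 30 members, with 19 below 0 and 11 above. For the 714 probe sets as bright it was -0.03, with 398 below and 316 above, so these leaned lower too. Both Tslc1-/- arrays lay below both Tslc1+/+ arrays for 15 members, 21.4% against 18.5% of all tested probe sets, and above for 9, 12.9% against 21.5%. As deviations from each member's own mean, on the log2 scale, the medians were 0.01 and 0.02 on the control arrays and -0.03 and -0.02 on those of the knockout. The sign of a complex's median was not fixed: quantile normalization put those of complexes III and IV above 0, and so did leaving out 1 array for complexes II, III, IV and V and for cytochrome c.

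**Figure D1:**
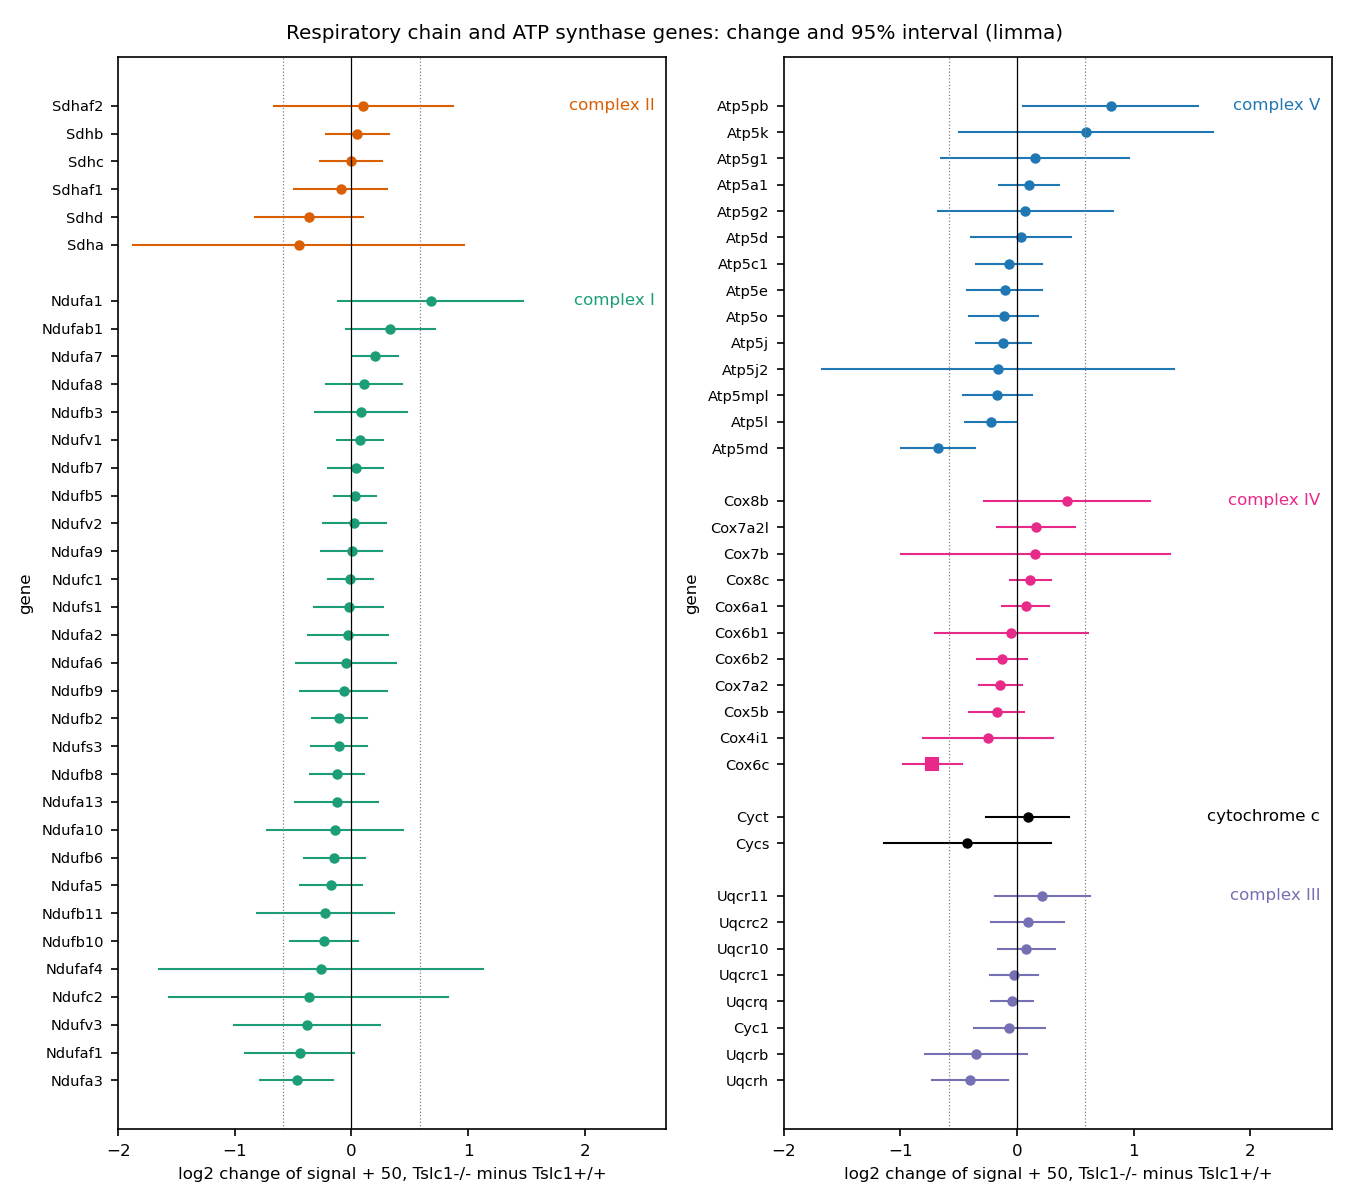
Log2 change of each of the 70 tested members (points; the square is the 1 called gene, Cox6c) with its 95% interval from limma, by complex; dotted lines mark a 1.5-fold change in either direction. Most points lie near 0, and Cox6c and Atp5md lie apart on the lower side, at -0.73 and -0.68.

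The intervals state how large a difference these arrays leave possible for each gene, given limma's estimate of spread. That estimate is shared among probe sets of similar signal, so a gene's own arrays do not set the width alone. The 95% interval of the change, not adjusted for the number of genes, lay within 1.5-fold in either direction for 43 of the 70 members, 61.4%, against 27.2% of all tested probe sets. Within 2-fold it was 59 of 70. Members were brighter than the array at large, with a median signal of 3463 against 777.3, and intervals narrow with signal. Among the 30 members with a signal of at least 5000, 29 had an interval within 1.5-fold (96.7%, against 85.3% of the 714 probe sets as bright), and among the 19 tested members under 1000, 0 had one. With that estimate, the change of bright members was bounded more tightly than that of dim ones.

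**Figure D2:**
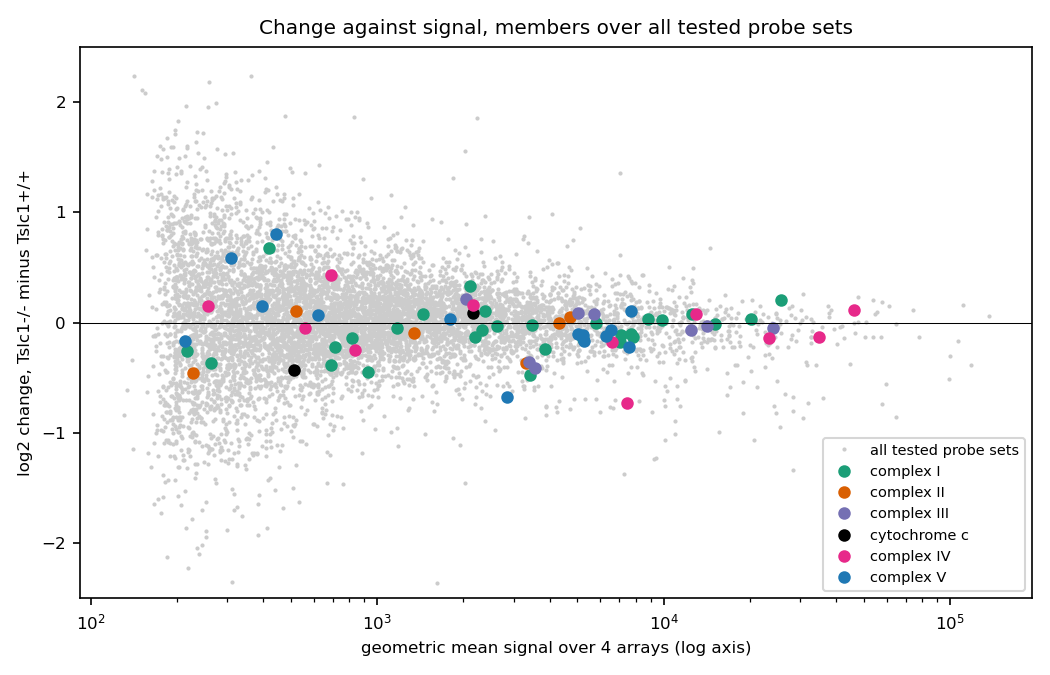
Log2 change against geometric mean signal over the 4 arrays (log axis) for all tested probe sets (grey) and the 70 tested members (coloured by complex); 4 probe sets lie outside the plotted range. Members scatter widely below a signal of 1000 and narrowly above 5000, where Cox6c stands below the rest.

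Complex I takes electrons from NADH and is the largest of the complexes. Of its 31 genes 29 were tested, and limma called 0, with 2 at an unadjusted p under 0.05. Ndufa12 and Ndufs4 were under the signal minimum, with mean signals of 63.7 and 118.9. The median change was -0.07, with 19 genes below 0 and 10 above, and the interval lay within 1.5-fold for 20 of 29.

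Core genes of the complex were closely bounded. Ndufv1, which holds the flavin that accepts electrons from NADH, had signals of 11959 and 12552 (Tslc1+/+) and of 13104 and 12709 (Tslc1-/-), with an interval from 0.917-fold to 1.21-fold. Its Tslc1-/- arrays were both above the controls, and the interval spans no change. Ndufs1, the large iron-sulphur subunit, gave 3475 and 3502 on the wild-type arrays and 3197 and 3677 on those of Tslc1-/- testis, so the genotypes overlapped. Ndufs3, a core subunit of the arm that carries electrons to ubiquinone, had a change of -0.11 with an interval from 0.784-fold to 1.10-fold.

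Accessory subunits, which surround the core, held the extremes of this complex. Ndufa7, the brightest gene of complex I, was at 25243 and 22661 in the controls and at 28639 and 26606 in the knockout, so that the change was 0.21 ± 0.09 (SE) in log2 units (adjusted p = 0.449, limma). Its arrays did not overlap between genotypes, and it passed as higher with quantile normalization (0.38, adjusted p = 0.0419, limma). Without Tslc1+/+ replicate 2 its change was 0.13. The lowest change was that of Ndufa3, a membrane-arm subunit, which had signals of 4381 and 3691 (Tslc1+/+) and of 2726 and 3058 (Tslc1-/-), so that the change was -0.47 ± 0.14 (SE; adjusted p = 0.214, limma). Both Tslc1-/- arrays lay below both controls. A second, dim Ndufa3 probe set overlapped between genotypes, with 403.9 and 425.7 in Tslc1+/+ and 166.0 and 490.9 in Tslc1-/-. The highest change was that of Ndufa1, a small membrane subunit, with 296.0 and 347.5 in the controls and 638.9 and 463.0 without Tslc1 (0.68 in log2 units, adjusted p = 0.585, limma). It is dim, and its interval ran from 0.925-fold to 2.78-fold. Ndufab1, the mitochondrial acyl carrier protein, had a change of 0.33 and did not overlap between genotypes.

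The bright accessory genes Ndufc1 and Ndufb5 overlapped between genotypes and were closely bounded. Ndufc1 gave 14766 and 15562 on the wild-type arrays and 15305 and 14834 on those of Tslc1-/- testis, with an interval from 0.870-fold to 1.14-fold. Ndufb5 was at 20212 and 19810 in the controls and at 19959 and 20996 in the knockout, with an interval from 0.903-fold to 1.16-fold. Ndufb10, Ndufb6 and Ndufb8 lay lower on both Tslc1-/- arrays, with changes of -0.24, -0.15 and -0.13, none of which passed. Ndufb2, another accessory gene, gave opposite signs on its bright probe sets, -0.10 on the brighter and 0.275 on the other. Of the assembly factors, Ndufaf1 was at 1125 and 1063 in the controls and 758.6 and 823.1 without Tslc1 (-0.44 in log2 units, adjusted p = 0.533, limma), and Ndufaf4, at a mean signal of 222.7, had a change of -0.26. Among the remaining genes of the complex the changes ran from -0.38 for Ndufv3 to 0.11 for Ndufa8, and none passed.

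Complex II oxidises succinate and is the only respiratory complex that is also an enzyme of the tricarboxylic acid cycle. All 6 genes were tested, limma called 0, and 0 reached an unadjusted p under 0.05. The median change was -0.05. Sdhb, its iron-sulphur subunit and the brightest, had signals of 4654 and 4593 (Tslc1+/+) and of 4491 and 5103 (Tslc1-/-). Sdhc, a membrane anchor, gave 4326 and 4335 on the wild-type arrays and 4468 and 4170 on those of Tslc1-/- testis, with an interval from 0.831-fold to 1.20-fold. In both, the genotypes overlapped. Sdhd, the other anchor, read 3864 and 3676 in Tslc1+/+ but 3790 and 2250 in Tslc1-/-, so Tslc1-/- replicate 2 stood below the other 3 arrays and the change was -0.36. Sdha, the flavoprotein, was dim, and its change of -0.45 had an interval from 0.273-fold to 1.96-fold. Sdhaf1 and Sdhaf2, which help insert the iron-sulphur centres and the flavin respectively, had changes of -0.09 and 0.10.

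Complex III moves electrons from ubiquinol to cytochrome c. All 8 genes were tested, limma called 0, and 1 reached an unadjusted p under 0.05. The median change was -0.04. Uqcrh, the hinge protein at the docking site of cytochrome c, had the lowest change of the complex: it was at 4607 and 3625 in the controls and at 2975 and 3168 in the knockout, which puts the change at -0.41 ± 0.15 (SE; adjusted p = 0.345, limma). Its arrays did not overlap between genotypes, and the change was -0.24 without Tslc1+/+ replicate 1. Uqcrb, a small subunit near the ubiquinone site, had a change of -0.35, with Tslc1+/+ replicate 1 at 4664 and the other control at 3147, and the genotypes overlapped. Uqcr11 had the highest change, 0.22, and also overlapped. Uqcr10 and Uqcrc2, the latter a core protein, had changes of 0.08 and 0.09.

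The bright genes of complex III were closely bounded. Uqcrq, a small membrane subunit and the brightest, had signals of 24734 and 24365 (Tslc1+/+) and of 24801 and 22874 (Tslc1-/-), with an interval from 0.856-fold to 1.10-fold, and its change of -0.04 was 0.13 with quantile normalization. Uqcrc1, one of the large core proteins, gave 15036 and 13651 on the wild-type arrays and 14461 and 13630 on those of Tslc1-/- testis, with an interval from 0.849-fold to 1.13-fold. Cyc1, which carries the haem that hands electrons to cytochrome c, was at 12737 and 12712 in the controls and at 14306 and 10290 in the knockout. The controls lay between the Tslc1-/- arrays, and the second Cyc1 probe set had a change of -0.01.

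The forms of cytochrome c were both tested and neither passed. Cyct, the testis form, had signals of 2013 and 2164 (Tslc1+/+) and of 2027 and 2450 (Tslc1-/-), a log2 change of 0.09 with an interval from 0.833-fold to 1.37-fold. Its arrays overlapped between genotypes. Cycs, the general form, gave 547.0 and 666.3 on the wild-type arrays and 354.6 and 533.7 on those of Tslc1-/- testis, a log2 change of -0.43 with an interval from 0.452-fold to 1.22-fold. Both Tslc1-/- arrays were below both controls, on a dim probe set. The change was -0.16 without Tslc1-/- replicate 1 and -0.69 without Tslc1-/- replicate 2. Signals of different probe sets do not rank the genes' RNA, and whether the changes of the forms differ was not tested.

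Complex IV, cytochrome c oxidase, reduces oxygen to water, and several of its small subunits exist in general, muscle and testis forms. Of 15 genes 11 were tested. Cox6c fell and 10 did not pass, and the median change was -0.05. The sign of that median depended on the processing: it was 0.075 with quantile normalization, and it was also above 0 with no signal filter, over probe sets with no suffix and for the mean of each gene's probe sets.

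Cox6c, a small subunit anchored in the inner membrane, was at 10401 and 8828 in the controls and at 5704 and 5835 in the knockout. Both Tslc1-/- arrays lay well below both controls, and the mean went from 9615 ± 1113 to 5770 ± 92.8 (SD, n = 2). The fall was 1.66-fold, or -0.73 ± 0.11 (SE) in log2 units (adjusted p = 0.012, limma), and the 95% interval ran from 0.508-fold to 0.719-fold. Its probe set carries the suffix f, which marks probes shared by a family of sequences. Both other Cox6c probe sets were under the signal minimum: one had signals of 139.0 and 169.9 (Tslc1+/+) and of 83.4 and 119.2 (Tslc1-/-), the other 26.1 and 47.1 against 318.3 and 93.1, so they had opposite signs.

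The call of Cox6c passed without Tslc1+/+ replicate 2 (adjusted p = 0.0387) and did not pass without Tslc1+/+ replicate 1 (0.133), Tslc1-/- replicate 1 (0.124) or Tslc1-/- replicate 2 (0.0968), with changes from -0.85 to -0.61 (limma). With a spread estimate that ignored signal it did not pass either (limma, adjusted p = 0.517). Spermatid markers also moved. Of 12 tested elongating spermatid genes 6 were called lower and none higher, with a median of -0.49, 10 below 0 and 2 above. Of 8 round spermatid genes 4 were called lower and none higher, with a median of -0.42 and all 8 below 0. Among the 714 tested probe sets with a mean signal of at least 5000, 7.28% were called in either direction. For the round spermatid genes the sum, in which bright probe sets weigh most, went from 190301 and 197665 on the control arrays to 127527 and 130106 on the others. No gene of either list was at 0, and their part in the Cox6c result was not tested. Odf1, an outer dense fibre gene of the flagellum, fell by 0.85 on the log2 scale, and Gsg1, a germ cell membrane protein gene, by 0.74.

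**Figure D3:**
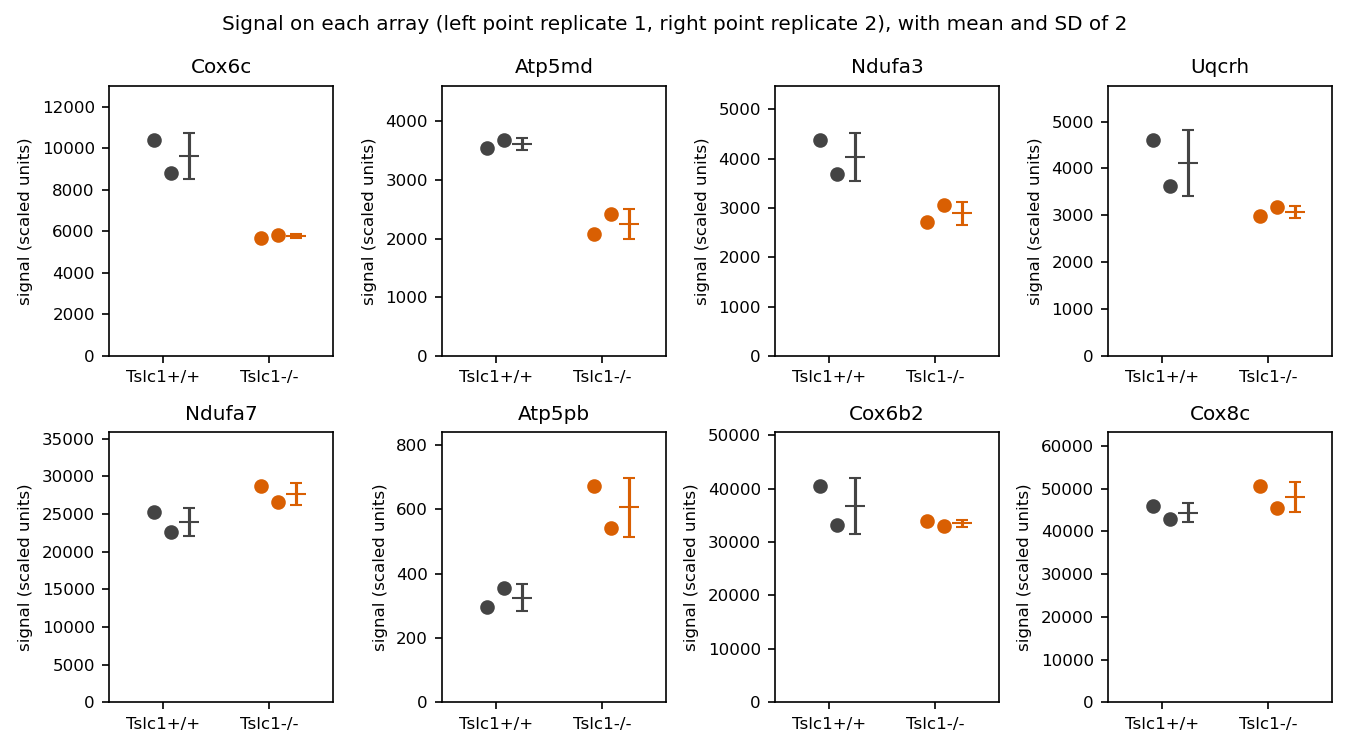
Signal on each array for 8 members, with the mean and SD of 2 arrays beside the points; each panel has its own axis from 0. Cox6c, Atp5md, Ndufa3 and Uqcrh read lower on both Tslc1-/- arrays, Ndufa7 and Atp5pb higher on both, and Cox6b2 and Cox8c overlap between genotypes; only Cox6c was called.

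The testis forms of complex IV were the brightest members of all, and neither passed. Cox8c, the testis form of the smallest subunit, gave 45927 and 42942 on the wild-type arrays and 50525 and 45573 on those of Tslc1-/- testis, a log2 change of 0.11 with an interval from 0.957-fold to 1.22-fold. The genotypes overlapped, with Tslc1+/+ replicate 1 just above Tslc1-/- replicate 2. Cox6b2, the testis form of a subunit that faces the intermembrane space, was at 40391 and 33095 in the controls and at 33997 and 32964 in the knockout, a log2 change of -0.13 with an interval from 0.789-fold to 1.06-fold. A second bright Cox6b2 probe set had a change of 0.045, and a dim one -0.47. With quantile normalization the change of the brightest Cox6b2 probe set was 0.075 and that of Cox8c 0.19, and neither passed.

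The other tested complex IV genes did not pass. Cox7a2, the general form of its subunit, had signals of 25448 and 23734 (Tslc1+/+) and of 21738 and 22781 (Tslc1-/-), a change of -0.14 whose arrays did not overlap, and 0.047 with quantile normalization. Cox6a1, the general form of another subunit, gave 12938 and 12265 on the wild-type arrays and 13612 and 12941 on those of Tslc1-/- testis, with the Tslc1-/- arrays narrowly above. Cox5b, which binds zinc on the matrix side, had a change of -0.18. Cox7a2l, a gene linked to supercomplexes of complexes III and IV, had one of 0.16. Cox6b1, the general counterpart of Cox6b2, had a change of -0.05 at a mean signal of 562.7. Cox4i1 gave -0.25 on its brighter probe set and 0.70 on a dimmer one, and Cox7b had a change of 0.15 at a mean signal of 258.3.

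Forms typical of heart and skeletal muscle were dim. Cox6a2 was at 65.0 and 125.2 in the controls and at 114.4 and 99.0 in the knockout, and Cox7a1 read 7.6 and 15.3 against 115.5 and 56.1. Neither reached the signal minimum. Cox8b, of the same kind, had signals of 826.8 and 417.0 (Tslc1+/+) and of 869.3 and 757.6 (Tslc1-/-), with the genotypes overlapping. A second Cox8b probe set, under the signal minimum, had the opposite sign, with 209.0 and 225.3 in Tslc1+/+ and 173.4 and 134.3 in Tslc1-/-. The general genes Cox8a and Cox5a were also under the minimum, with mean signals of 67.2 and 76.8.

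**Figure D4:**
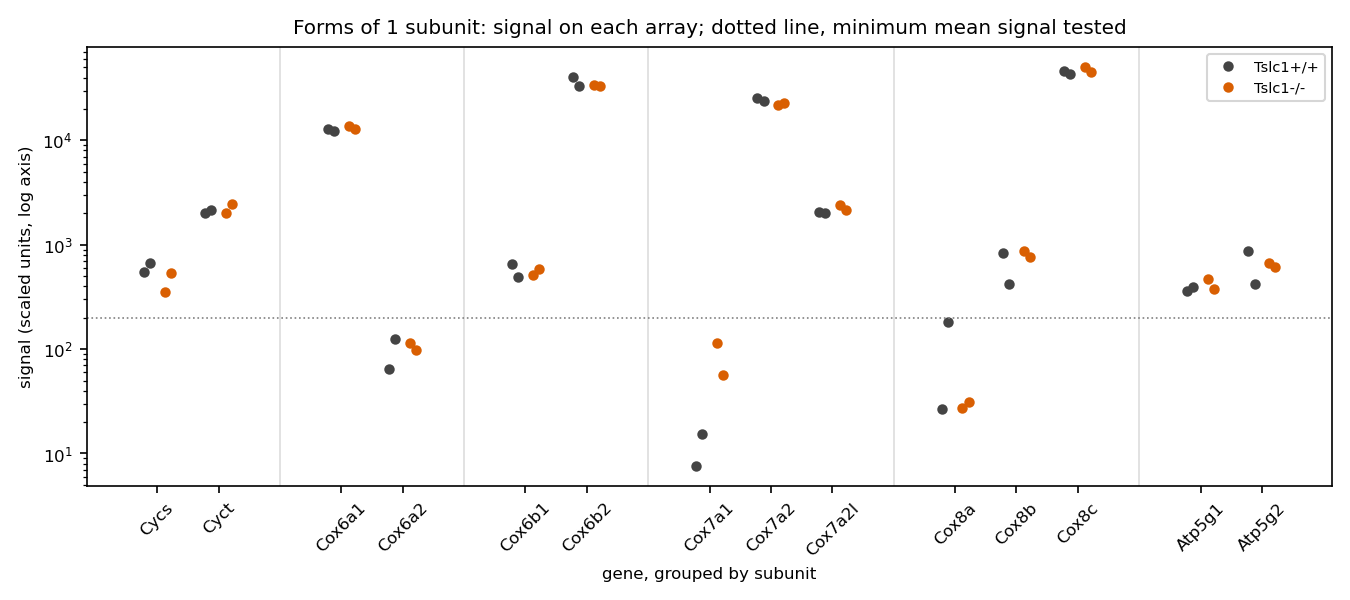
Signal on each array (log axis) for forms of 1 protein, Tslc1+/+ in grey and Tslc1-/- in orange; the dotted line is the minimum mean signal tested, 200. Cox8c, Cox6b2, Cox7a2 and Cox6a1 are bright in both genotypes, at 12265 or more, while Cox6a2, Cox7a1 and Cox8a lie below the line; signals of different probe sets are not levels of RNA on 1 scale.

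Complex V makes ATP: a membrane rotor of c subunits turns a central stalk inside a catalytic head, which a side stalk holds still. All 14 genes were tested, limma called 0, and 2 reached an unadjusted p under 0.05. The median change was -0.09, with 8 genes below 0 and 6 above. In the head and central stalk, Atp5a1, the alpha subunit, gave 7450 and 7350 on the wild-type arrays and 7244 and 8714 on those of Tslc1-/- testis, so the genotypes overlapped. Atp5c1, the gamma subunit, had a change of -0.07 with an interval from 0.785-fold to 1.16-fold. Atp5d, the delta subunit, had 5 tested probe sets: the brightest was at 0.035, and the others ran from 0.06 down to -1.24 on a probe set with a mean signal of 235.5. Of the rotor's c subunit genes, Atp5g1 and Atp5g2 had changes of 0.15 and 0.07, both dim and overlapping. A second, dimmer Atp5g1 probe set had the opposite sign, at -0.14. A second Atp5g2 probe set was at 0.68 and higher on both Tslc1-/- arrays, at a mean signal of 221.9, and did not pass.

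The small membrane subunits of ATP synthase held the lowest change of the complex. Atp5md, a subunit linked to the pairing of ATP synthase into dimers, was at 3548 and 3682 in the controls and at 2074 and 2428 in the knockout. Both Tslc1-/- arrays lay well below the controls, at a change of -0.68 ± 0.14 (SE), but the gene did not pass (adjusted p = 0.0617, limma). Leaving out an array gave adjusted p from 0.124 to 0.321 (limma). The probe set carries the suffix f, as does that of Cox6c, and so does that of Ndufa3. Of the 12 tested members with this suffix, 7 were below 0 and the median change was -0.11. At an unadjusted p under 0.05 (limma) there were 3 of them, all lower. Among the 50 tested members with no suffix there were 3, 1 lower and 2 higher. Atp5l, the g subunit, had signals of 8326 and 7990 (Tslc1+/+) and of 7099 and 6882 (Tslc1-/-), lower on both arrays by 0.22 (limma, adjusted p = 0.506). Atp5mpl and Atp5j, another membrane subunit and a side stalk subunit, also lay lower on both, by 0.17 and 0.12, and neither passed. Atp5mpl was at 5586 and 5595 in the controls and at 4423 and 5577 in the knockout, so Tslc1-/- replicate 2 was only just below them.

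The highest change among all members was that of Atp5pb, the b subunit of the side stalk. It gave 296.3 and 355.3 on the wild-type arrays and 670.6 and 541.4 on those of Tslc1-/- testis, with no overlap, and its change was 0.80 ± 0.34 (SE; adjusted p = 0.45, limma). The probe set was dim, and the interval ran from 1.04-fold to 2.93-fold. Atp5k, the e subunit, had a change of 0.59 and overlapped between genotypes. Atp5o, at the top of the side stalk, had a change of -0.11 at a signal of 5260, and Atp5e and Atp5j2 had changes of -0.11 and -0.16.

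Other mitochondrial genes were read in 8 lists outside the member rule. Of 136 genes on the array 124 were tested and limma called 0. At an unadjusted p under 0.05 there were 9, 6 lower and 3 higher, against 799 of all 7975 tested probe sets. Their median change was 0.03. By list the medians were 0.08 for 11 enzymes of the tricarboxylic acid cycle, 0.12 for 7 genes of pyruvate dehydrogenase, 0.08 for 9 assembly factors, 0.04 for 9 carriers and porins, 0.03 for 55 mitochondrial ribosomal proteins and 0.08 for 18 import genes. The 7 genes of other electron entry points had a median of -0.21, and the 8 regulators of mitochondrial biogenesis one of -0.14.

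The lowest p of these lists was that of Gpd2, the mitochondrial glycerol phosphate dehydrogenase, which feeds electrons to ubiquinone. It was at 23363 and 23486 in the controls and at 18949 and 15793 in the knockout, or -0.44 in log2 units (adjusted p = 0.0816, limma), and its probe set carries the suffix f. Dlat, a pyruvate dehydrogenase subunit, had signals of 1147 and 1098 (Tslc1+/+) and of 688.5 and 693.6 (Tslc1-/-), or -0.66 in log2 units (adjusted p = 0.266, limma). Suclg1, a subunit of succinyl-CoA ligase, gave 6503 and 6722 on the wild-type arrays and 7951 and 7857 on those of Tslc1-/- testis, or 0.26 in log2 units (adjusted p = 0.41, limma). All 3 were named for the lowest p of their list, their arrays did not overlap between genotypes, and none passed. Of the 124 list genes 19.4% lay lower on both Tslc1-/- arrays and 26.6% higher, against 18.5% and 21.5% of all tested probe sets. Changes were -0.68 for Mrps24, a ribosomal protein, -0.40 for the chaperone Hspd1, -0.57 for the regulator Yy1, 1.17 for the adenylate kinase Ak4 and 0.42 for the assembly factor Surf1. None of these passed. Ak4 was dim, at 63.6 and 256.6 in Tslc1+/+ and 384.5 and 356.4 in Tslc1-/-, with an interval from 0.825-fold to 6.15-fold. Atpif1, the inhibitor of ATP synthase, was bright, at 12172 and 11597 in Tslc1+/+ and 11102 and 11415 in Tslc1-/-, with a change of -0.08.

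**Figure D5:**
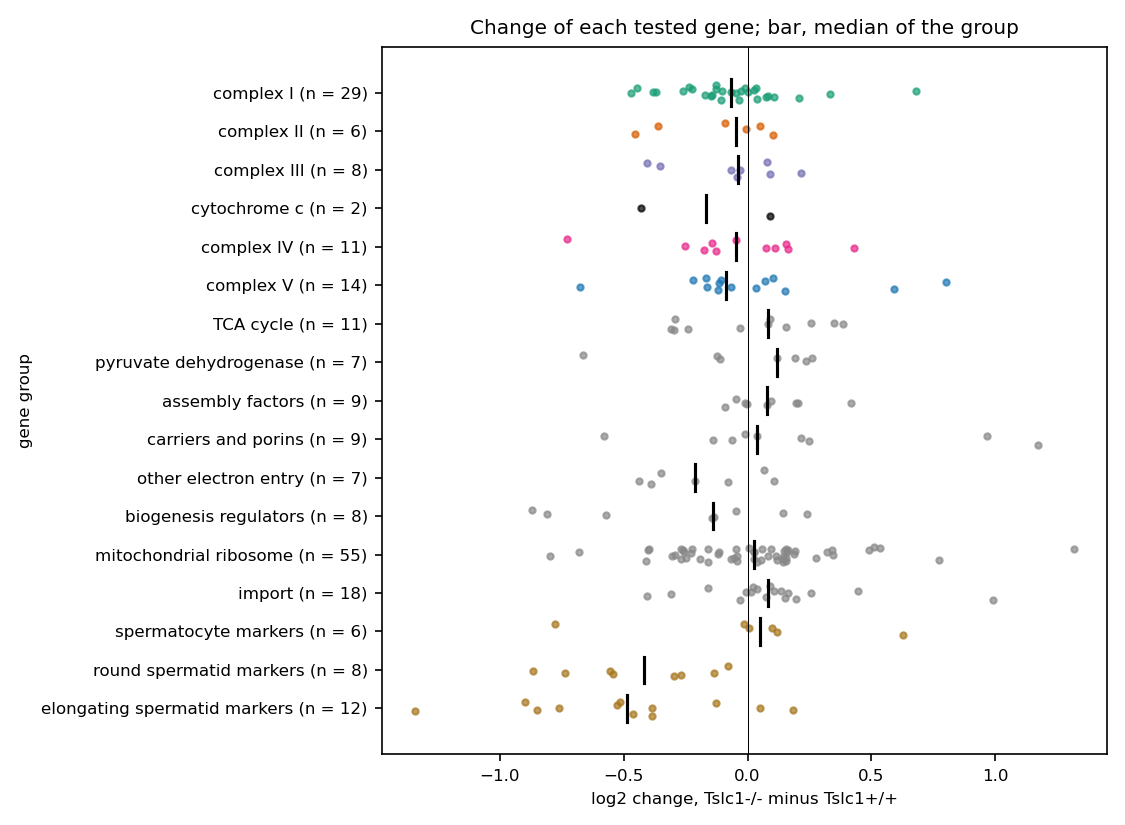
Log2 change of each tested gene (points) and the median (bar) for the complexes, 8 other mitochondrial lists (grey) and markers of 3 germ cell stages (brown). Medians of complexes I to V lie between -0.09 and -0.04, and that of the 2 cytochrome c genes is at -0.17. Those of the round and elongating spermatid markers are at -0.42 and -0.49.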

How the data were processed

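Testis RNA of 4 samples was read on Affymetrix mouse genome arrays. Per the labels' design text, the authors computed each probe set's intensity with Microarray Suite 5.0 (MAS5, also in the submitters' processing notes) and scaled every array to a target of 1000; the genome build is not given in the sources used here. Such scaling hides a change in total RNA. The 12488 probe sets include 66 controls, left out. Genes are named from the platform annotation, where 10833 probe sets have 1 gene symbol, 396 several and 1193 none. Promoters came from RefSeq (GRCm38.p6), matched by gene identifier for 62 of 76 members.

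Deposited intensities were used as log2(signal + 50). Probe sets with a mean of at least 200 were fitted with limma 3.58.1 in R 4.3.3 (lmFit and eBayes, with the prior spread following signal), as knockout minus wild type, with two-sided p-values adjusted by Benjamini-Hochberg over 7975 probe sets. The fit was tested on simulated data. Changes of probe sets under the minimum come from a fit of all probe sets. With 2 arrays per genotype an exact permutation test cannot go below p = 0.333, and their number limits the precision. Members of a complex are not replicates, so no test was run across them.

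The members and lists were chosen with earlier results of these data known. Named by rule were called members; the brightest member of each complex and those of highest and lowest change; cytochrome c genes and Cyc1; subunit forms; Cadm1; and the lowest p of each list. Marker lists with a median beyond 0.2 either way were also to be named. Other genes were chosen after their values were seen. Alternatives changed the pseudocount, filter, normalization, spread estimate, probe sets and arrays.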

Additional observations from a re-analysis of the deposited data

How the results depend on the processing

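Of all tested probe sets 86 were called; without the intensity trend limma called 0, with 638 at an unadjusted p under 0.05, and with 1 array left out 37 to 43. The count of members called was 1, Cox6c, with other pseudocounts, either other signal filter, equal array medians and any probe set of a gene. It was 2 with quantile normalization (Cox6c and Ndufa7), 0 without the trend, and 0 over probe sets with no suffix, where Cox6c has no tested probe set; with 1 array left out it was 0 to 1. The median change of the members was -0.047 with no filter, -0.067 at a minimum of 500, -0.039 with quantile normalization, -0.029 over probe sets with no suffix, -0.045 for the mean of a gene's probe sets, and -0.051 to -0.029 with 1 array left out, so it stayed below 0. Complex IV was at 0.075 with no filter, with quantile normalization and for the mean of probe sets, and at 0.133 with no suffix. Complex III was at 0.065 with quantile normalization and complex II at -0.183 with no suffix. With 1 array left out the medians ran from -0.099 to -0.031 (complex I), -0.230 to 0.019 (II), -0.087 to 0.014 (III), -0.105 to 0.113 (IV), -0.148 to 0.027 (V) and -0.367 to 0.031 (cytochrome c). The cause was not tested. Of 27 named members, 13 that were not called changed sign in at least 1 alternative, in 18 of 338 values. With quantile normalization Cox6b2 was at 0.075, Cox7a2 at 0.047, Cyc1 at 0.01 and Uqcrq at 0.127, and with no suffix Cox4i1 was at 0.698. With 1 array left out the values of Cox6b1 (-0.237 to 0.142), Cox6b2 (-0.271 to 0.017), Sdhaf2 (-0.31 to 0.514), Atp5g2 (-0.411 to 0.55), Cox4i1 (-0.507 to 0.003), Cox8b (-0.025 to 0.884), Sdha (-1.043 to 0.138), Atp5a1 (-0.031 to 0.234), Cyc1 (-0.305 to 0.168), Cyct (-0.041 to 0.226), Sdhb (-0.041 to 0.141) and Uqcrq (-0.102 to 0.015) ran across 0. Low signal limits the dim members most.

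The genotypes share replicate numbers, which the labels do not say pair the samples; the difference between replicates 1 and 2 in Tslc1+/+ correlated with that in Tslc1-/- at r = -0.001 over probe sets. With the replicate number as a block, limma called 239 probe sets and 2 members, Cox6c and Atp5md (adjusted p = 0.0057).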

Other observations

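Markers of other testis cells are given here as values, with no comparison to the members. The 11 tested Sertoli cell genes had a median change of 0.10, the 8 Leydig cell genes one of 0.03 and the 6 spermatocyte genes one of 0.05, and of these only Pgk2, a spermatocyte gene, was called (limma), lower in Tslc1-/-. Of 7 endothelial genes on the array 3 were tested, with a median of -1.13. Pecam1, an endothelial adhesion molecule, was at 911.0 and 687.5 in Tslc1+/+ and at 244.8 and 117.4 in Tslc1-/-, which did not pass (adjusted p = 0.0694, limma). Of the others tested, Kdr, a growth factor receptor, was at -1.13, and Vwf, a clotting protein, was at 0.22 and lay higher on both Tslc1-/- arrays. The 4 macrophage genes tested had a median of 0.25, from -0.92 for Csf1r, a growth factor receptor, to 0.90 for Laptm5, a lysosomal protein of blood cells, and these lay lower and higher on both Tslc1-/- arrays, respectively. The fat genes Adipoq and Lep were at -0.17 and -0.60, and the epididymis gene Adam7 at -0.50, none of which passed.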
